A study of Mus musculus with 17 samples.

Results

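Sox11, Sox4 and Sox12, the 3 SoxC transcription factor genes, were described together with 5 genes used in immature or regrowing neurons, Dcx, Dpysl3, Dpysl5, Igfbpl1 and Nrep. These 8 genes were taken by symbol from the 56953 genes of a count table from mouse prefrontal cortex. Sox11 had been picked because its level was lower, and Nrep because its level was higher, in hTau mice than in both other genotypes, so that these 2 differences are given below as descriptions without a test. All 8 passed the filter on low counts that left 23062 genes for testing.

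The libraries came from 5 WT, 6 hTau and 6 CgA-KO/hTau mice of the B6C3F1/J strain, 8 months old. The hTau mice are heterozygous for a transgene of mutant human Tau (P301S) under control of the Prnp promoter (the PS19 line), which is active in neurons and in other cells. The CgA-KO/hTau mice carry the same transgene and lack Chga, the gene of chromogranin A, in every cell from conception. A knockout without the transgene was not analysed here, so the knockout was seen on the transgenic background alone.

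SoxC proteins bind DNA through an HMG box and switch on genes of neuronal differentiation once a progenitor has stopped dividing. Dcx and the collapsin response mediator proteins made from Dpysl3 (CRMP4) and Dpysl5 (CRMP5) act on microtubules and growth cones of migrating and axon-extending neurons. In the adult rodent forebrain such genes mark neuroblasts of the subventricular zone and olfactory bulb, new granule cells of the dentate gyrus and immature neurons of the piriform cortex, while lower levels remain in mature neurons. Igfbpl1 encodes an insulin-like growth factor binding protein-like protein of young neurons and their precursors. Nrep (also called P311) encodes a small protein that raises translation of TGF-beta and has been tied to nerve regeneration.

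The 3 SoxC genes are each a single exon on the minus strand (GENCODE M21, GRCm38), Sox11 at chr12:27334264-27342574, Sox4 at chr13:28948919-28953713 and Sox12 at chr2:152393611-152398063. Sox4 overlaps the lincRNA gene Gm26735 on the other strand, and since it is not stated whether the counting used the strand, reads of the pair cannot be told apart. Their promoters are shown so that Sox11, chosen for its pattern, can be read beside its paralogs. Each run is the 250 bases upstream of the RefSeq start (GRCm38.p6, minus strand, 5′ to 3′), at chr12:27342719-27342968, chr13:28953700-28953949 and chr2:152398047-152398296. Capitals mark GC boxes (GGGCGG or CCGCCC) and CCAAT boxes (CCAAT or ATTGG), which do not overlap each other.
Sox11: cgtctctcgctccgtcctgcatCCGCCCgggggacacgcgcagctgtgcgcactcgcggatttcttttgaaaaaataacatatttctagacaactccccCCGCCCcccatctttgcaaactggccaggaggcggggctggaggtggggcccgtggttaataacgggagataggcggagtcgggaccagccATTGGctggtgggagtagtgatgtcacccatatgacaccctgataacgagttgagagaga
Sox4: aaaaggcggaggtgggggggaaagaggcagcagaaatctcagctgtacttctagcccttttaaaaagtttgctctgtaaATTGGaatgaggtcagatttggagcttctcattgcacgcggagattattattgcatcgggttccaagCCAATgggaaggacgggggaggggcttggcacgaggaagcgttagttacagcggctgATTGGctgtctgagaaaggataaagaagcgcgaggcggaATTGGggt
Sox12: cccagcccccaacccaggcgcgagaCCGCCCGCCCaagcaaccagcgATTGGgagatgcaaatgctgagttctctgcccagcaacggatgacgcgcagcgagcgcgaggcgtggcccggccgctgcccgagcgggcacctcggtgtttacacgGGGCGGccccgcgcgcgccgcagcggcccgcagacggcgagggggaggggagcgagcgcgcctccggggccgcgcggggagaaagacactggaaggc

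The Sox11 window held 2 GC boxes and 1 CCAAT box, and Sox12 held 3 GC boxes, a pair of which overlap, and 1 CCAAT box. Sox4 held 4 CCAAT boxes and 0 GC boxes. Neither a TATA box (TATAAA or TTTATA) nor a SOX motif (ACAAAG or CTTTGT) was found on either strand of the 3 windows, which says only that these letters are not there. Of 32851 RefSeq promoters of the same length, 32.7% held a GC box, 33.9% a CCAAT box, 12.4% a TATA box and 16.5% a SOX motif. G and C made up 58.0% of the Sox11 window, 50.8% of that of Sox4 and 74.4% of that of Sox12.

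Total counts ran from 8838334 in WT replicate 4 to 227651681 in hTau replicate 6, and levels are given as CPM, the count scaled to a common library size after TMM normalization. About 3 deposited counts stood for 1 sequenced fragment in every library, so the counts overstate the depth, most of all for Igfbpl1. Chga was at 0 in all 6 CgA-KO/hTau libraries, and Prnp, whose promoter drives the transgene, had a higher mean in both transgenic genotypes than in WT. The Y-linked gene Ddx3y exceeded 1 CPM in no library other than replicates 1 to 3 of the 3 genotypes. The hTau replicates 4 to 6 were unusually alike (robust SD of the log2 ratio, taken from the median absolute deviation, 0.0523 to 0.0607 over 3761 genes), as were CgA-KO/hTau replicates 1 and 3 (0.0980), against at least 0.146 for other pairs of a genotype. They differed by 1.88 to 2.80 times the counting noise and were kept as separate samples, with the calls that end when each set is averaged named below. Upper-layer cortical neuron markers were present in every library (863 to 1614 CPM over 10 genes), and 20 markers of the striatum, which lies next to the cortex, were present too, at very unequal levels. Their summed level was 1235 to 3598 CPM in WT, 214 to 269 CPM in hTau with 1 of the 20 at 0 throughout, 2132 and 2155 CPM in CgA-KO/hTau replicates 1 and 3, 504 CPM in replicate 2 and 248 to 283 CPM in replicates 4 to 6. In WT replicate 5, choroid plexus markers summed to 1464 CPM, against 141 to 281 CPM in the other 16 libraries, and several calls below end without it. In tissue RNA, fewer cells of a type and less RNA per cell cannot be told apart.

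**Figure D1:**
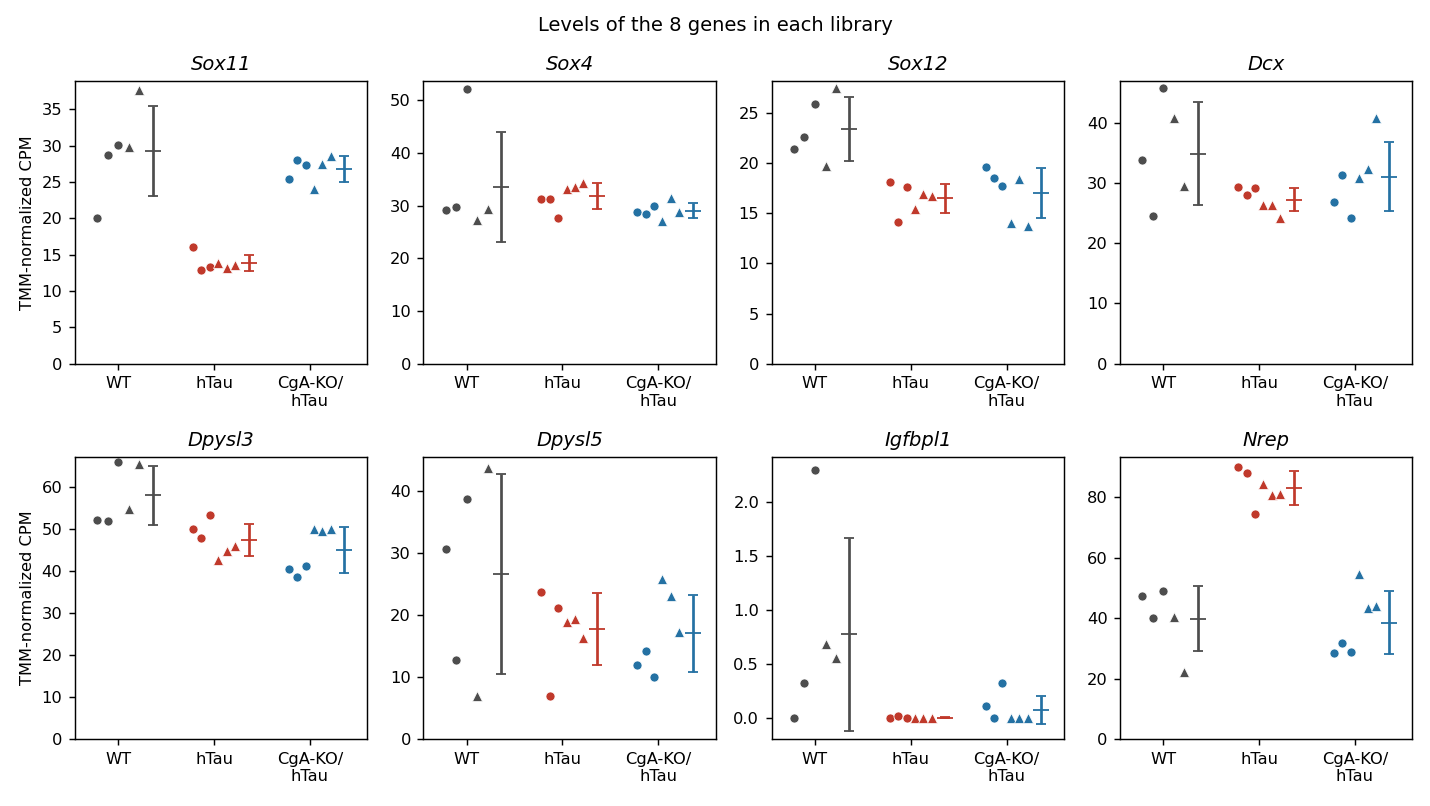
Level of each of the 8 genes (TMM-normalized CPM, vertical axis from 0 except Igfbpl1, whose axis starts below 0) in every library of the 3 genotypes, with circles for replicates 1 to 3, triangles for replicates 4 and above, and a bar for the mean ± SD. Sox11 was at 12.9 to 16.0 CPM in hTau and Nrep at 74.5 to 90.0 CPM, each apart from the other 2 genotypes, while Sox4, Dcx and Dpysl5 overlapped in all of them.

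Sox11, which drives neuronal differentiation and axon growth programmes, had a mean of 29.3 CPM ± 6.24 (SD, n = 5) in WT, 13.8 CPM ± 1.14 (SD, n = 6) in hTau and 26.8 CPM ± 1.76 (SD, n = 6) in CgA-KO/hTau. The 5 WT libraries stood at 20.1, 28.7, 30.1, 29.8 and 37.7 CPM. The hTau libraries ran from 12.9 CPM through a median of 13.5 CPM to 16.0 CPM, and the CgA-KO/hTau libraries from 24.0 CPM through 27.4 CPM to 28.6 CPM. No hTau library reached the lowest library of either other genotype, and these are the values that chose the gene. Over all genes 4.39% did not overlap and were lower in hTau than in WT, and 2.84% did not overlap and were higher in CgA-KO/hTau than in hTau. The log2 fold change was -1.08 (SE 0.12) for hTau against WT and 0.96 (SE 0.12) for CgA-KO/hTau against hTau, comparisons that share the hTau libraries. Spread within a genotype was small in the transgenic libraries, with a coefficient of variation of 8.21% in hTau and 6.56% in CgA-KO/hTau, against 21.3% in WT. These values count the unusually alike libraries, hTau replicates 4 to 6 and CgA-KO/hTau replicates 1 and 3, as separate samples. Within replicates 1 to 3 alone the log2 fold change was -0.91 and 0.95, and within replicates 4 and above -1.29 and 0.96.

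The comparison of CgA-KO/hTau with WT was not fixed by the choice of Sox11, and it was not called, with a log2 fold change of -0.13 (SE 0.12, 95% interval -0.38 to 0.13). The false discovery rate (FDR), from edgeR's quasi-likelihood fit with the Benjamini-Hochberg method over the 23062 genes, was 0.597. Its interval leaves room for a level up to that much lower or higher, and the missed threshold does not show that the 2 genotypes were alike.

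Nrep showed the opposite order. WT libraries stood at 47.5, 40.2, 49.1, 40.6 and 22.2 CPM. The hTau libraries ran from 74.5 CPM through a median of 82.7 CPM to 90.0 CPM, and the CgA-KO/hTau libraries from 28.5 CPM through 37.5 CPM to 54.5 CPM. Every hTau library was above every library of the other genotypes, again as the choice of the gene required, where 5.13% of all genes were higher in hTau than in WT and 3.79% lower in CgA-KO/hTau than in hTau without overlap. On the log2 scale the difference was 1.06 (SE 0.19) for hTau against WT and -1.11 (SE 0.18) for CgA-KO/hTau against hTau. With the striatum marker score as a covariate the first fell to 0.46 and the second was -0.87, while those of Sox11 were -0.98 and 0.91. Every hTau library lay below every WT library in the summed striatum level. For hTau against WT this covariate therefore cannot tell regional make-up from genotype, and these are fits to the values that chose both genes.

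Against WT, the log2 fold change of Nrep in CgA-KO/hTau was -0.05 (SE 0.19, 95% interval -0.45 to 0.35, FDR 0.917). That value joins unlike libraries. In CgA-KO/hTau, Nrep was at 28.5 to 31.7 CPM in replicates 1 to 3 and at 43.3 to 54.5 CPM in replicates 4 to 6, whereas in WT the mean was 45.6 CPM in replicates 1 to 3 and 31.4 CPM in replicates 4 and 5. Within replicates 1 to 3 Nrep was called lower in CgA-KO/hTau than in WT (log2 fold change -0.60, FDR 0.00641), and within replicates 4 and above the value was 0.62 (FDR 0.244, edgeR in both). The first of these FDRs may be too small, since CgA-KO/hTau replicates 1 and 3 are the unusually alike pair. Sex, by Ddx3y, and replicate number change together here and cannot be told apart.

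**Figure D2:**
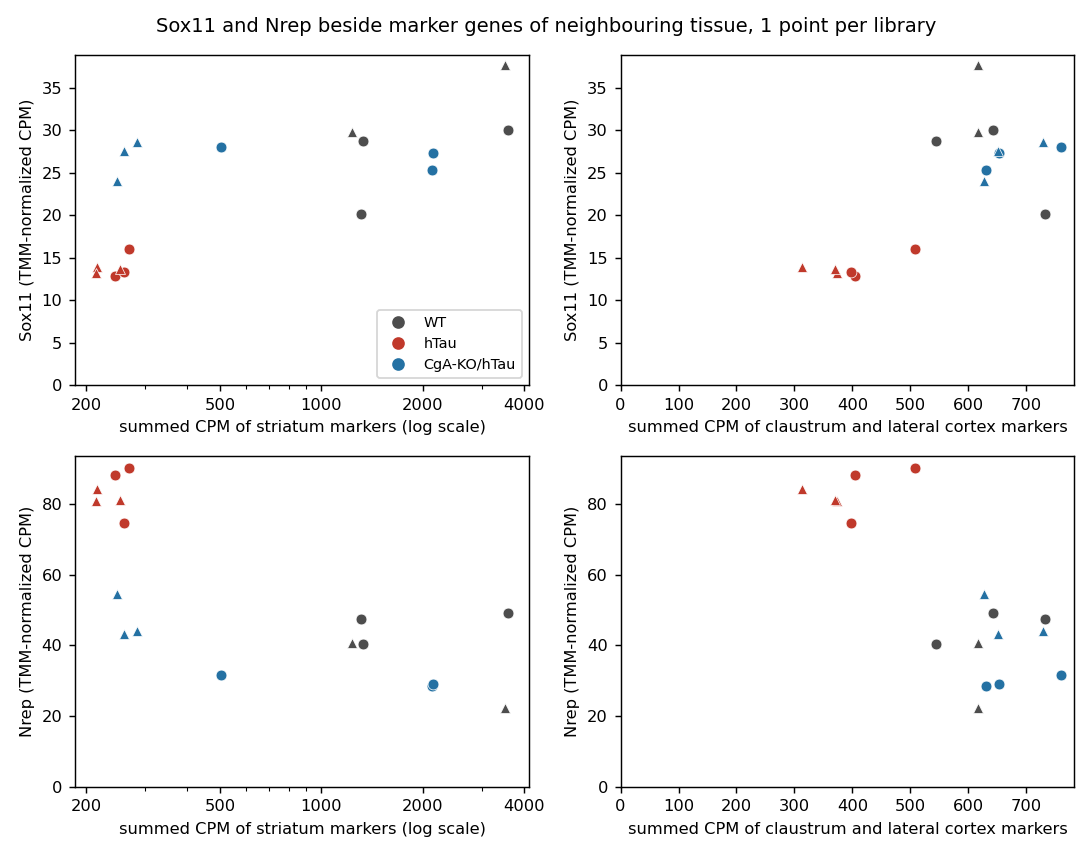
Level of Sox11 (top) and Nrep (bottom) in TMM-normalized CPM against the summed CPM of 20 striatum markers (left, log scale) and of 8 claustrum and lateral cortex markers (right), 1 point per library, with circles for replicates 1 to 3 and triangles for replicates 4 and above. CgA-KO/hTau replicates 4 to 6 lie at 248 to 283 CPM of striatum markers, near the hTau libraries, with Sox11 at 24.0 to 28.6 CPM, and the hTau libraries stand lowest on the claustrum axis.

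Regional markers were set beside Sox11 and Nrep. CgA-KO/hTau replicates 4 to 6 had a summed striatum marker level of 248 to 283 CPM, close to the 214 to 269 CPM of hTau, with Sox11 at 24.0 to 28.6 CPM and Nrep at 43.3 to 54.5 CPM. These are among the values that chose both genes, and the part of the striatum RNA in the 2 differences was not tested. Markers of the claustrum and lateral cortex (8 genes, among them Nr4a2, Gnb4 and Oprk1) were lowest in hTau, as was Sox11. Their median sum was highest in CgA-KO/hTau (652 CPM, against 617 CPM in WT), whereas the mean of Sox11 was highest in WT. Their summed level was 545 to 733 CPM in WT, 313 to 508 CPM in hTau and 628 to 761 CPM in CgA-KO/hTau, and none was at 0 throughout. Of the 8, 5 were called lower in hTau than in WT and 5 higher in CgA-KO/hTau than in hTau, beside 3.95% and 5.5% of all genes. With the near-identical libraries averaged, these counts fell to 1 and 2. With the score of this list as a covariate, chosen after the data had been seen, the log2 fold change of Sox11 was -1.14 for hTau against WT and 1.02 for CgA-KO/hTau against hTau, and that of Nrep 1.0 and -1.05. These are again fits to the values that chose both genes. Every hTau library lay below every other library in the summed level, so this covariate cannot tell regional make-up from genotype.

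**Figure D3:**
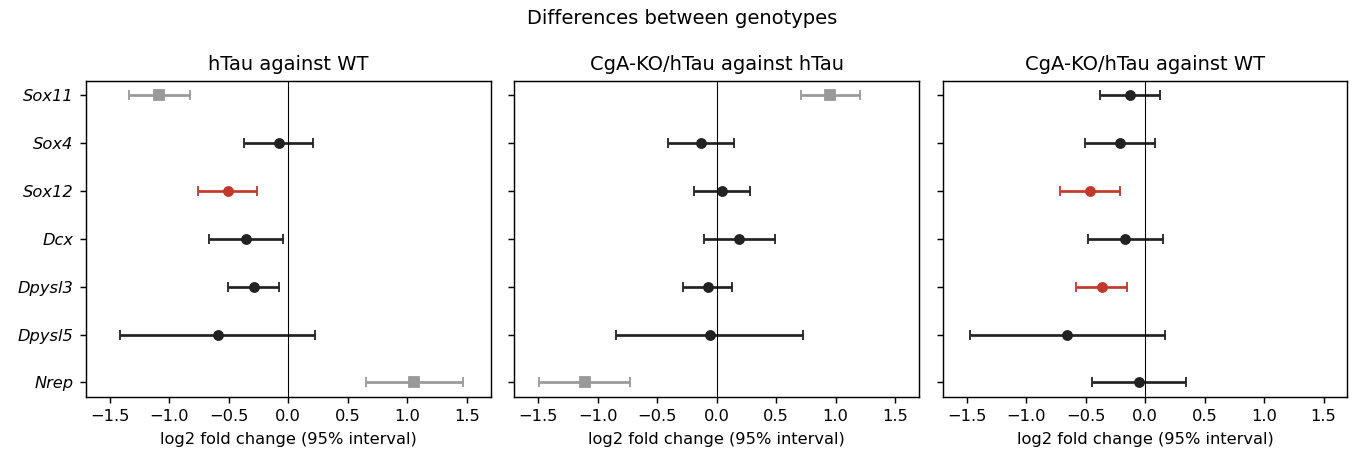
Log2 fold change with 95% interval of 7 of the 8 genes in the 3 comparisons, Igfbpl1 left out for its counts near 0. Grey squares are the values that chose Sox11 and Nrep, red points passed an FDR of 0.05 and black points did not, with Sox12 at -0.51 for hTau against WT and -0.46 for CgA-KO/hTau against WT.

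Among the 6 genes not chosen by their values, 2 were called for hTau against WT, Sox12 and Igfbpl1, both lower, and 4 had an unadjusted p under 0.05. Over all genes tested 5.9% were called, 3.95% lower and 1.95% higher. Igfbpl1 passed the filter on low counts only through libraries of WT and CgA-KO/hTau, dropping out when CgA-KO/hTau replicate 3 was left out, and Sox12 was the 1 called among the other 5. Between the transgenic genotypes, CgA-KO/hTau against hTau, 0 of 6 were called with edgeR, DESeq2 or limma voom, where edgeR called 9.72% of all genes, 5.5% higher and 4.22% lower, and 1 of 6, Igfbpl1, had an unadjusted p under 0.05 with edgeR. For CgA-KO/hTau against WT, 2 of 8 were called, Sox12 and Dpysl3, both lower, against 6.46% of all genes, 2.89% lower and 3.56% higher.

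Sox12, the SoxC gene with the weakest transactivation domain, was lower in both transgenic genotypes than in WT. WT libraries stood at 21.3, 22.5, 25.9, 19.7 and 27.5 CPM. The hTau libraries ran from 14.2 CPM through a median of 16.8 CPM to 18.1 CPM, and the CgA-KO/hTau libraries from 13.7 CPM through 18.1 CPM to 19.6 CPM. Neither transgenic genotype overlapped WT, in CgA-KO/hTau by a narrow margin, where 4.39% and 1.54% of all genes did not overlap and were lower. Sox12 had a log2 fold change of -0.51 (SE 0.12, FDR 0.0157) for hTau against WT and -0.46 (SE 0.12, FDR 0.0261) for CgA-KO/hTau against WT. Between the transgenic genotypes it was 0.04 (95% interval -0.19 to 0.28, FDR 0.835). The hTau call ended with the striatum marker score (-0.18, FDR 0.495), the claustrum score (-0.25, FDR 0.432), without WT replicate 5 (FDR 0.0622), with the near-identical libraries averaged (FDR 0.0857), within replicates 1 to 3 (FDR 0.111) and within replicates 4 and above (FDR 0.175). The CgA-KO/hTau call ended with the striatum score (-0.28, FDR 0.113), without WT replicate 3 (FDR 0.0657) or 5 (FDR 0.0939), with the averaging (FDR 0.0591), within either set of replicates (FDR 0.111 and 0.163) and in a fit of the 2 genotypes (FDR 0.118).

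Sox4, the SoxC gene that also acts in progenitors and in many tissues outside the brain, was not called in any comparison. It stood at 29.2, 29.7, 52.2, 27.4 and 29.4 CPM in WT, at 27.7 to 34.4 CPM in hTau (median 32.2) and at 27.2 to 31.4 CPM in CgA-KO/hTau (median 28.8). All 3 genotypes overlapped, and WT replicate 3 stood far above every other library. Sox4 had a log2 fold change of -0.08 (95% interval -0.37 to 0.21, FDR 0.797) for hTau against WT, -0.13 (-0.41 to 0.14, FDR 0.545) for CgA-KO/hTau against hTau and -0.21 (-0.50 to 0.08, FDR 0.408) for CgA-KO/hTau against WT. Without WT replicate 3 the comparisons with WT turned to 0.14 and 0.0087, still uncalled.

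Dcx, the microtubule-binding protein of migrating neuroblasts, lies on chromosome X and was not called in any comparison. WT libraries stood at 33.8, 24.5, 45.8, 40.7 and 29.5 CPM, hTau libraries at 24.2 to 29.3 CPM (median 27.2) and CgA-KO/hTau libraries at 24.2 to 40.8 CPM (median 31.1). The hTau libraries kept within a narrow band at the low end of both other genotypes. The log2 fold change was -0.36 (95% interval -0.67 to -0.04, FDR 0.178) for hTau against WT, 0.19 (-0.11 to 0.49, FDR 0.406) for CgA-KO/hTau against hTau and -0.17 (FDR 0.57) for CgA-KO/hTau against WT.

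Dpysl3, which encodes CRMP4, was the most abundant CRMP gene of the 2 described here in CPM. It stood at 52.0, 51.9, 65.8, 54.6 and 65.5 CPM in WT, at 42.6 to 53.3 CPM in hTau (median 46.9) and at 38.7 to 50.1 CPM in CgA-KO/hTau (median 45.4). The CgA-KO/hTau libraries lay below all WT libraries, as for 1.54% of all genes, and the log2 fold change was -0.37 (SE 0.10, FDR 0.0394). For hTau against WT it was -0.29 (SE 0.10, FDR 0.104), which was called with DESeq2 (FDR 0.0456) and limma voom (FDR 0.0116) but not with edgeR, and for CgA-KO/hTau against hTau -0.08 (FDR 0.651). The CgA-KO/hTau call sat at the threshold and ended when any of 8 libraries was left out, with FDR up to 0.125 without WT replicate 5, and with the near-identical libraries averaged (FDR 0.121). It also ended without a filter (FDR 0.0725), with the claustrum score (FDR 0.0503), within replicates 4 and above (FDR 0.335) and in a fit of the 2 genotypes (FDR 0.131).

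Dpysl5, which encodes CRMP5, varied most within a genotype among the genes above 1 CPM. WT libraries stood at 30.7, 12.8, 38.8, 6.96 and 43.7 CPM, a 6.28-fold range, hTau libraries at 7.02 to 23.8 CPM (median 19.2) and CgA-KO/hTau libraries at 10.0 to 25.8 CPM (median 15.8). The genotypes overlapped fully. The log2 fold change was -0.59 (95% interval -1.41 to 0.22, FDR 0.411) for hTau against WT, -0.06 (-0.84 to 0.72, FDR 0.938) for CgA-KO/hTau against hTau and -0.65 (-1.47 to 0.17, FDR 0.357) for CgA-KO/hTau against WT. These intervals are the widest of the genes above 1 CPM. The gene Gm42764 lies inside an intron of Dpysl5 on the same strand, so that their reads may be split between them.

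Igfbpl1 was close to absent in hTau and low in the other genotypes, with WT and CgA-KO/hTau overlapping. The deposited counts were 0, 21, 451, 6 and 58 in WT. In hTau, 5 of 6 libraries were at 0 and replicate 2 held 3 counts, about 1 fragment, and in CgA-KO/hTau replicate 1 held 6, replicate 3 held 58 and 4 of 6 were at 0. A count of 0 allows up to 3 fragments, or 9 deposited counts, which is 0.0396 to 0.164 CPM in the hTau libraries and 0.260 CPM in WT replicate 1. Most of the WT signal came from replicate 3, at 2.30 CPM, with the others at 0 to 0.684 CPM. Relative to library size, WT held 386 times the fragments of hTau (exact 95% interval 68.4 to 15330, counting error only), and 116 times without WT replicate 3 (19.2 to 4749). Igfbpl1 passed the filter only through libraries of WT and CgA-KO/hTau, which favours a call of lower in hTau. That edgeR call, for hTau against WT, had an FDR of 0.00417. The FDRs for CgA-KO/hTau against hTau and against WT missed the threshold (0.0646 and 0.081). The hTau call ended with the striatum score (FDR 0.774), with the claustrum score (FDR 0.254), within replicates 1 to 3 (FDR 0.136) and with the near-identical libraries averaged (FDR 0.0513). The CgA-KO/hTau call against hTau was reached without WT replicate 1 (FDR 0.0467) or CgA-KO/hTau replicate 4 (0.0328) or 5 (0.0484), and that against WT with the deposited counts divided by 3 (0.0266), without WT replicate 1 (0.0474), with the claustrum score (0.0458) and with the Ddx3y level as a covariate (0.0479).

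Several of these genes were highest in the same WT library. WT replicate 3 had the highest Sox4, Dcx, Dpysl3 and Igfbpl1 of all 17 libraries. It also had Sp8, a transcription factor of olfactory bulb neuroblasts, at 14.4 CPM, against at most 3.78 CPM in any other library, and the highest Calb2 (44.5 CPM) and Pbx3 (47.2 CPM) in WT. The summed level of 18 neuroblast genes was 851 CPM there, 482 to 774 CPM in the other WT libraries, 422 to 495 CPM in hTau and 411 to 525 CPM in CgA-KO/hTau. WT replicate 3 also had the highest summed striatum marker level of all libraries, 3598 CPM, with WT replicate 5 next at 3508 CPM. The part of neuroblast or striatum RNA in the levels of the SoxC and CRMP genes was not tested.

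CgA-KO/hTau libraries differed by replicate number in Dpysl3 and Dpysl5 too, a difference noticed in the data and not tested. Dpysl3 was at 38.7 to 41.2 CPM in replicates 1 to 3 and 49.5 to 50.1 CPM in replicates 4 to 6, and Dpysl5 at 10.0 to 14.2 CPM and 17.4 to 25.8 CPM. In hTau, Dpysl3 went the other way, from 47.8 to 53.3 CPM in replicates 1 to 3 to 42.6 to 46.1 CPM in replicates 4 to 6. These ranges count the unusually alike libraries, hTau replicates 4 to 6 and CgA-KO/hTau replicates 1 and 3, as separate samples. Markers of several cell types separated the same CgA-KO/hTau libraries. The summed level was 740 to 766 CPM in replicates 1 to 3 and 1114 to 1164 CPM in replicates 4 to 6 for GABAergic interneurons, and 863 to 1165 CPM and 1523 to 1551 CPM for upper-layer neurons. It went the other way for oligodendrocytes, from 2755 to 3149 CPM to 1659 to 1760 CPM, and for astrocytes, from 4711 to 7115 CPM to 1563 to 3725 CPM, and the part of these cell types in the levels of Dpysl3, Dpysl5 and Nrep was not tested. The same sets overlapped in Sox11, with 25.4 to 28.0 CPM and 24.0 to 28.6 CPM.

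Levels of different genes were compared per length, as CPM per kilobase of merged exons. Nrep ranked first in each genotype, at 10.2 ± 2.74 (SD, n = 5) in WT, 21.3 ± 1.44 (SD, n = 6) in hTau and 9.86 ± 2.68 (SD, n = 6) in CgA-KO/hTau. Dpysl3, Sox4 and Sox12 followed in that order in all 3, and Igfbpl1 ranked last. Sox11, at 3.52, 1.66 and 3.23 CPM per kilobase, ranked 6 of 8 in WT, 7 in hTau and 5 in CgA-KO/hTau. Neighbours in this order were mostly not separated by their libraries. In WT the libraries of neighbours overlapped down to Igfbpl1, in hTau Nrep stood apart from Dpysl3 and Sox4 from Sox12, and in CgA-KO/hTau Sox4 from Sox12.

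The genes most like Sox11 over the 17 libraries, by Pearson correlation of log2(CPM + 1) among genes of at least 5 CPM, were Rfx3 (r = 0.898), Syt10 (0.895), Lpl (0.888), Dubr (0.887) and Zfp882 (0.886). Rfx3 encodes a transcription factor of ciliary genes, Syt10 a calcium sensor of vesicle release and Lpl lipoprotein lipase. Lpl, for example, was at 41.5 ± 11.4 CPM in WT (SD, n = 5), 16.3 ± 2.21 CPM in hTau (SD, n = 6) and 30.5 ± 8.15 CPM in CgA-KO/hTau (SD, n = 6). Those most like Nrep were Klhl40 (r = 0.964), Fhl2 (0.947), Plxdc1 (0.942), Stard8 (0.941) and Foxo3 (0.935). Foxo3, a forkhead transcription factor of stress responses, stood at 124 ± 21.1 CPM in WT, 174 ± 8.28 CPM in hTau and 129 ± 18.1 CPM in CgA-KO/hTau (SD, n = 5, 6 and 6). The points share the genotypes, the depth and the regional make-up of each library, so that these values describe likeness alone.

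**Figure D4:**
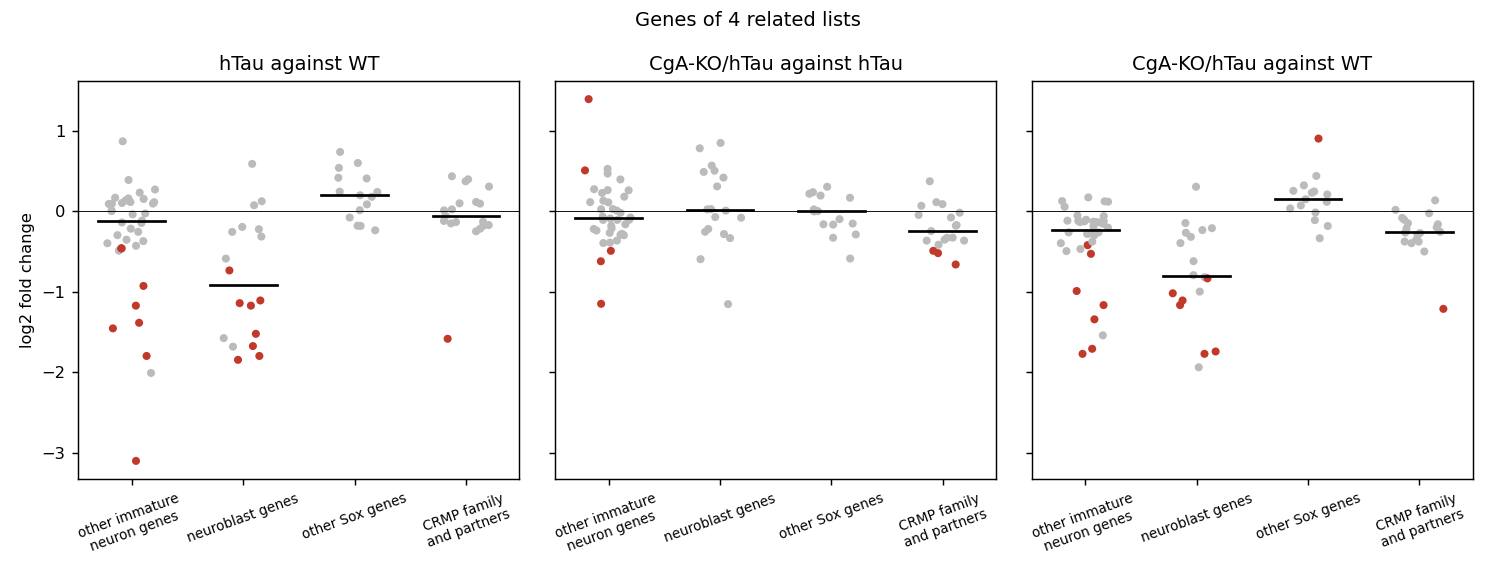
Log2 fold change of each tested gene of 4 related lists in the 3 comparisons, with red points past an FDR of 0.05, grey points that were not, and a line at the median of each list. The 18 neuroblast genes have a median of -0.92 for hTau against WT and 0.01 for CgA-KO/hTau against hTau, and the 15 other Sox genes 0.20 and -0.00.

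Of 38 other genes used in immature neurons, 8 were lower and 0 higher in hTau than in WT, with a median log2 fold change of -0.13 beside 0.01 over all genes, of which 3.95% were lower and 1.95% higher. Gap43, the growth cone protein GAP-43, was at 255 to 359 CPM in WT, 140 to 185 CPM in hTau and 187 to 266 CPM in CgA-KO/hTau, and its log2 fold change was -0.93 (SE 0.12, FDR 0.00025). Marcksl1, an actin-regulating membrane protein of growing neurites, fell by 1.39 on the log2 scale (FDR 0.00079), and the neonatal gene Nnat by 3.10 (FDR 0.000816). The other 5 called lower were Calb2, Cd24a, Draxin, Marcks and Ncam1. Within replicates 1 to 3 the count was 1, with the claustrum score 4, with the averaging 5, with limma voom 15 and with the striatum score 19, of which 1 was higher. With the striatum score 7 of 10 markers of neurons in general were called lower too, against 0 in the main fit, so the rise was not particular to this list.

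In CgA-KO/hTau against hTau, 2 of the 38 were higher and 3 lower, with a median of -0.08. Over all genes the median was 0.03, and 5.5% were called higher and 4.22% lower. Gap43 rose by 0.51 on the log2 scale (SE 0.11, FDR 0.0114) and Nnat by 1.39 (SE 0.43, FDR 0.0484), both without overlap but with almost no margin. The highest hTau and lowest CgA-KO/hTau libraries were at 185.0 and 186.6 CPM for Gap43 and both near 10.56 CPM for Nnat. Of all genes 2.84% were higher without overlap. Tubb3, the neuronal tubulin that SoxC factors can activate, was lower (-0.62, SE 0.14, FDR 0.0125), as were the semaphorin receptor Plxna4 (-0.49, FDR 0.0184) and Nhlh1 (-1.15, FDR 0.00919), a basic helix-loop-helix factor under 1 CPM in the mean. Averaging the near-identical libraries left 0 of these 5 calls, and so did the claustrum score. In CgA-KO/hTau, 7 of 38 were lower and 0 higher than in WT, beside 2.89% and 3.56% of all genes. The median was -0.23 beside 0.01, and leaving out WT replicate 5 left 3 calls.

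The 18 genes of subventricular zone and olfactory bulb neuroblasts share Calb2 and Cd24a with the list above. In hTau 8 were lower and 0 higher than in WT, beside 3.95% and 1.95% of all genes, with a median of -0.92. Sp9 and Dlx6, transcription factors of GABAergic neuroblasts, were lower by 1.67 and 1.52 on the log2 scale (FDR 0.000613 and 0.000975), and Calb2, the calretinin gene, by 1.80 (FDR 0.00226). Meis2, Pbx3 and Sp9 are also used by mature striatal neurons. Of the 20 striatum markers, 19 were called lower in the same comparison, and 8 with the near-identical libraries averaged. With the striatum score as a covariate 5 of the 18 were lower, with the claustrum score 3 and with the averaging 6. Between CgA-KO/hTau and hTau, 0 were called with edgeR, beside 9.72% of all genes, 0 with DESeq2 and 1 with limma voom. With edgeR 6 had an unadjusted p under 0.05, and the median was 0.01. Compared to WT, 6 were lower and 0 higher in CgA-KO/hTau, beside 2.89% and 3.56% of all genes, with a median of -0.81. Leaving out WT replicate 3 or 5 left 4 lower in either case.

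Of 16 other Sox genes, 15 were tested and 0 were called with edgeR for hTau against WT, where a share of 5.9% as over all genes would give under 1, with 2 at an unadjusted p under 0.05, 1 called with DESeq2 and 2 with limma voom. Between CgA-KO/hTau and hTau, 0 were called with the 3 tools, where edgeR called 9.72% of all genes. With edgeR 1 had an unadjusted p under 0.05. Sox21, a SoxB gene of progenitors and glial precursors, was higher in CgA-KO/hTau (12.4 ± 2.68 CPM, SD, n = 6) than in WT (6.54 ± 1.69 CPM, SD, n = 5), by 0.90 on the log2 scale (FDR 0.0104). Sox2 was at 31.5, 33.5 and 39.5 CPM in WT, hTau and CgA-KO/hTau in the mean, and Sox9, Sox8 and Sox10, the SoxE genes of glia, were not called in any comparison.

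The remaining CRMP genes were more abundant than Dpysl3 and Dpysl5 or close to them. Dpysl2 (CRMP2) had means of 410, 413 and 321 CPM in WT, hTau and CgA-KO/hTau, Crmp1 of 195, 168 and 148 CPM and Dpysl4 (CRMP3) of 34.1, 36.6 and 28.6 CPM, and none was called in any comparison. Of 19 CRMP family members and partners, 1 was lower and 0 higher in hTau than in WT, beside 3.95% and 1.95% of all genes. It was Nrp2, the semaphorin co-receptor neuropilin-2 (-1.58, SE 0.26, FDR 0.00172). For CgA-KO/hTau against hTau, 3 were lower and 0 higher, beside 4.22% and 5.5% of all genes, and the list's median was -0.25. They were Plxna4 with the ligand gene Sema3c (-0.66, FDR 0.0159) and the receptor gene Plxna1 (-0.52, FDR 0.0264). Against WT, 1 was lower in CgA-KO/hTau, beside 2.89% of all genes, and it was Nrp2 again (-1.21, FDR 0.0112). The averaging of near-identical libraries, and the claustrum score, left 0 calls for CgA-KO/hTau against hTau.

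Within the doublecortin family, 5 of 6 genes other than Dcx were tested. Against WT, 1 was lower in hTau, beside 3.95% of all genes, and 1 in CgA-KO/hTau, beside 2.89%. Dclk3, a doublecortin-like kinase gene that is strong in striatum, was lower in hTau than in WT (-0.54, FDR 0.0194) and lower in CgA-KO/hTau than in WT (-0.75, FDR 0.0037). Dclk1, the most abundant at a mean of 884 CPM in WT, was not called. No gene was called for CgA-KO/hTau against hTau with edgeR, DESeq2 or limma voom, where edgeR called 9.72% of all genes. With edgeR 1 had an unadjusted p under 0.05. The hTau call of the list was lost with the near-identical libraries averaged and without WT replicate 5, each of which left 0.

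Among 19 genes of TGF-beta and insulin-like growth factor signaling set beside Nrep and Igfbpl1, 2 were higher and 2 lower in hTau than in WT. Over all genes 1.95% were higher and 3.95% lower. Igfbp6, which binds insulin-like growth factors, had a mean of 28.1 CPM in WT, 56.5 CPM in hTau and 32.0 CPM in CgA-KO/hTau, and was called higher in hTau than in WT (2.00-fold, FDR 0.00978) and lower in CgA-KO/hTau than in hTau (log2 fold change -0.82, FDR 0.0201). Ltbp1, which holds latent TGF-beta in the matrix, was higher in hTau than in WT (0.57, FDR 0.0199), and Tgfb2, the TGF-beta2 ligand, and Igfbp3 were lower (-0.98, FDR 0.00778, and -0.77, FDR 0.0239). In CgA-KO/hTau, 1 of 19 was lower and 0 higher than in hTau, beside 4.22% and 5.5% of all genes. Compared to WT, 1 was higher and 1 lower, beside 3.56% and 2.89%. All 4 hTau calls and that of Igfbp6 in CgA-KO/hTau were lost when the near-identical libraries were averaged.

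Of 18 genes of axon growth and regeneration, 17 were tested. In hTau 3 were lower and 0 higher than in WT, beside 3.95% and 1.95% of all genes. These were Gap43, the neurotrophin receptor gene Ngfr (-1.44, FDR 0.00535) and Jun (-0.67, FDR 0.027). Compared to hTau, Atf3, an injury-induced transcription factor, was higher in CgA-KO/hTau (2.06, FDR 0.0086) from 0.288 to 0.562 CPM in hTau to 0.553 to 3.13 CPM in CgA-KO/hTau, as was Gap43, and Rtn4r, the Nogo receptor gene, was lower (-0.80, FDR 0.0406). Against hTau, 2 were higher and 1 lower in CgA-KO/hTau, beside 5.5% and 4.22% of all genes. Against WT, 1 was higher and 2 lower in CgA-KO/hTau, beside 3.56% and 2.89%. With the near-identical libraries averaged, 1 was lower in hTau than in WT. For CgA-KO/hTau against hTau, 1 was then higher and 0 lower, and against WT 1 was higher and 0 lower.

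Of 20 genes of progenitors and dividing cells, 19 were tested. In hTau 1 was higher and 1 lower than in WT, beside 1.95% and 3.95% of all genes. For CgA-KO/hTau against hTau 1 was higher and 0 lower, beside 5.5% and 4.22%. Vim, an intermediate filament gene of radial glia and astrocytes, was higher in hTau than in WT (0.46, FDR 0.0451), and Fabp7, the fatty acid binding protein of radial glia and astrocytes, was higher in CgA-KO/hTau than in hTau (1.34, FDR 0.0175). Between CgA-KO/hTau and WT, 0 were called with edgeR, beside 6.46% of all genes. With edgeR 3 had an unadjusted p under 0.05, and DESeq2 and limma voom each called 1. The summed level of the list was 120 to 164 CPM in WT, 140 to 161 CPM in hTau and 149 to 174 CPM in CgA-KO/hTau, so the genotypes overlapped. The call of Vim was lost without WT replicate 5, and averaging the near-identical libraries left 0 calls in either comparison with hTau.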

How the data were processed

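RNA of prefrontal cortex was measured by poly(A) mRNA sequencing in 17 mice. The authors trimmed reads with Trimmomatic 0.39, aligned them to mm10 with STAR 2.7.10b, quantified genes with StringTie 1.3.6 and deposited whole-number counts per gene, converted from coverage with prepDE and not normalized. The annotation release and strand setting are not given in the sources used here. About 3 counts stood for 1 fragment, since low counts peaked at 3 and 6 in 17 of 17 libraries.

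The counts went unchanged into edgeR 4.0.16 (R 4.3.3), with TMM, filterByExpr by genotype and a quasi-likelihood test in one fit of all libraries without covariates. Calls have a Benjamini-Hochberg FDR under 0.05. The p-values measure the spread between libraries labelled as replicates. The sources do not tie libraries to sexes, so sex was no term, and the Ddx3y level stood for it in 1 alternative. Intervals for counts are at 95% and, like the limits for counts of 0, cover counting error only. Scores are means of centred log2(CPM + 1) over a marker list. Every hTau library was below every WT library in the summed level of the striatum and of the claustrum markers. For hTau against WT, calls that end with either score therefore do not tell regional make-up from genotype. The members and all gene lists were chosen with earlier results of these data known. Named list genes are the called ones with the 3 smallest p-values per direction in comparisons with hTau, the Sox and CRMP families, and the 5 most like Sox11 and Nrep. The other genes named, such as Sp8, Pbx3 and Meis2, were chosen after their values were seen. The alternatives included DESeq2 1.42.0, limma 3.58.1 voom, other filters, scaling and subsets, covariates and each library left out. The fit was tested on simulated data with known changes. Of the called list genes, 1 is not reported here.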

Additional observations from a re-analysis of the deposited data

Results flagged for a closer look

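In 4 of 24 groups of 5 or 6 libraries of 1 gene, 1 library stood apart from the rest by Dixon's test, which chance gives in about 1 of 20 groups. Sox4 was at 52.2 CPM in WT replicate 3, against at most 29.7 CPM in the other WT libraries. Sox11 was at 16.0 CPM in hTau replicate 1, against at most 13.9 CPM in the other hTau libraries, and still below every library of the other genotypes. Igfbpl1 was at 0.0192 CPM in hTau replicate 2, a single fragment, with the other 5 hTau libraries at 0, so that any value above 0 would have stood apart by construction. Igfbpl1 was at 0.319 CPM in CgA-KO/hTau replicate 3, against at most 0.107 CPM in the others, and that library also had a summed striatum marker level of 2155 CPM.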

How the results depend on the processing

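In 15 alternatives and with each of the 17 libraries left out, Sox11 and Nrep kept their direction for hTau against WT and for CgA-KO/hTau against hTau. Both genes were chosen by these directions in the same libraries, so this gives them no further support. Sox11 ranged from -1.29 to -0.91 and from 0.90 to 1.02 over the 15, and Nrep from 0.46 to 1.43 and from -1.49 to -0.81. The counts of members called were 2, 0 and 2 for hTau against WT, CgA-KO/hTau against hTau and CgA-KO/hTau against WT. The first fell to 0 with the striatum score, with the claustrum score, with the near-identical libraries averaged and in replicates 1 to 3, and to 1 in replicates 4 and above and in fits of the 2 genotypes compared only, where Igfbpl1 was filtered out. The last fell to 1 with the striatum score and without a filter, and to 0 with the averaging, in replicates 4 and above and in fits of 2 genotypes. Deviations from the genotype means correlated over 0.1 in 2 of 16 same-numbered pairs (r = -0.23 to 0.44), and in 5 of 32 cases a library correlated best with its own number in another genotype, so the numbers were not taken to pair the samples. With the replicate number as a block, the counts of members called were 2, 0 and 0, with Sox12 (FDR 0.0617) and Dpysl3 (FDR 0.0959) lost against WT, and Dpysl5 turned to 0.032 for CgA-KO/hTau against hTau. Leaving out 1 library gave 1 to 2, 0 to 1 and 0 to 3 members called. The lowest first count came without WT replicate 5 or CgA-KO/hTau replicate 3, the 1 in the second without WT replicate 1 or CgA-KO/hTau replicate 4 or 5, and the 0 in the third without WT replicate 3 or 5.

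All values that changed sign were uncalled. For CgA-KO/hTau against hTau, Sox12 turned to -0.25 with the claustrum score, -0.11 with the striatum score, -0.10 in replicates 4 and above and -0.010 without a filter. Dpysl5 turned to 0.062 with the averaging, 0.040 with the striatum score and 0.26 in replicates 4 and above, where Dpysl3 turned to 0.15. Igfbpl1 turned to -0.96 with the striatum score and Dcx to -0.055 in replicates 1 to 3. For hTau against WT, Sox4 turned to 0.11 with the claustrum score, 0.12 with the striatum score and 0.27 in replicates 4 and above. For CgA-KO/hTau against WT, Nrep turned to 0.024 with the averaging and 0.62 in replicates 4 and above, Sox4 to 0.042 there, and Sox11 to 0.044 in replicates 1 to 3. With 1 library left out, Dpysl5 for CgA-KO/hTau against hTau ranged from -0.22 to 0.063, Nrep for CgA-KO/hTau against WT from -0.20 to 0.039, and Sox4 for the comparisons with WT from -0.14 to 0.14 and from -0.28 to 0.0087. The causes were not tested.

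Over the 15 alternatives, 1 to 19, 0 to 20 and 3 to 21 of the other immature neuron genes and 0 to 10, 0 to 3 and 2 to 8 of the neuroblast genes were called in the 3 comparisons, with 1, 20 and 14 and with 0, 3 and 5 in replicates 1 to 3. The share of all genes called in each setting is not given here, so these ranges are no result about the lists alone. Depth limits Igfbpl1 most, since a count of 0 in WT replicate 4 would have allowed up to 1.03 CPM.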
